A study of Mus musculus domesticus and Mus musculus domesticus x Mus musculus castaneus and Mus musculus castaneus with 10 samples.

Results

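The class I antigen presentation genes are 10 genes chosen by symbol, B2m, H2-K1, H2-D1, H2-T23, Tap1, Tap2, Tapbp, Nlrc5, Psmb8 and Psmb9, and matched to the Ensembl identifiers of the count table. Of these 10, 7 were measured in the counts used here, out of 26808 genes in all. The heavy chain genes H2-K1, H2-D1 and H2-T23 were not analysed here. RNA-seq counts came from CAST homozygous stem cells (strain CAST/EiJ, Mus musculus castaneus), with 2 libraries of undifferentiated cells. These were induced pluripotent stem cells, made from embryonic fibroblasts with retroviral vectors for Oct4, Sox2 and Klf4, kept on a layer of irradiated fibroblasts that was depleted before RNA was extracted. Replicate 1 held 14460393 counts and replicate 2 held 13728098. Each library has a batch entry of its own in the labels, and an effect of batch cannot be told apart from one of replicate.

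Class I molecules carry peptides from inside the cell to its surface, where cytotoxic T cells inspect them. The proteasome cuts the peptides, the TAP transporter moves them into the endoplasmic reticulum, and tapasin holds the transporter beside a heavy chain paired with beta-2 microglobulin. Interferon gamma raises most of these genes, and mouse embryonic stem cells are known for few class I molecules at their surface.

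The 7 measured genes together held 53.7 counts per 1000000 counts of the library (CPM) in replicate 1 and 52.9 in replicate 2, a mean of 53.3 ± 0.551 (SD, n = 2). More than 3 counts in both libraries, taken as the limit of detection, were found for 6 of the 7, the exception being Psmb8. The limit equals 0.207 CPM in replicate 1 and 0.219 CPM in replicate 2. In the whole table, 13468 of 26808 genes (50.2%) were above it in both libraries. Because longer transcripts collect more reads, genes were compared with each other per kilobase of the longest coding transcript. In mean CPM per kilobase the order was B2m, Tapbp, Tap1, Psmb9, Nlrc5 and Tap2, with Psmb8 at the detection limit or below it. The median of all genes above the limit in both libraries was 7.60 CPM per kilobase, which B2m exceeded and the other 6 did not. Shares of genes below a given level, as used next, are over the whole table, in which 9404 genes had no count in either library. In such bulk samples, fewer cells with a transcript and less of it per cell cannot be told apart.

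B2m (ENSMUSG00000060802, chr2:122147686-122153083 of GRCm38, plus strand) encodes beta-2 microglobulin, the light chain of every class I molecule. It had 214 counts in replicate 1, or 14.8 CPM (95% exact Poisson interval 12.9 to 16.9), and 177 in replicate 2, or 12.9 CPM (11.1 to 14.9). The intervals, which here and below cover counting error only, overlap between the libraries. Per kilobase its level was 16.1 ± 1.57 CPM (SD, n = 2), above 83.0% of the genes in the table that have a transcript length. It was the highest of the 7 by this measure.

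Tapbp (ENSMUSG00000024308, chr17:33915899-33929292, plus strand) encodes tapasin, which bridges the transporter and the empty class I molecule. It had 290 counts in replicate 1, or 20.1 CPM (17.8 to 22.5), and 270 in replicate 2, or 19.7 CPM (17.4 to 22.2). The libraries were closer to each other for this gene than for any other of the 6 above the limit. Its level per kilobase was 6.85 ± 0.0944 CPM (SD, n = 2), above 73.9% of genes. Within a library B2m was higher than Tapbp per kilobase, 2.49-fold in replicate 1 (95% exact binomial interval 2.07 to 2.98) and 2.21-fold in replicate 2 (1.82 to 2.68).

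The genes of the peptide transporter stood far apart, although their products form a heterodimer of Tap1 and Tap2. Tap1 (ENSMUSG00000037321, chr17:34187553-34197225, plus strand) had 205 counts in replicate 1, or 14.2 CPM (12.3 to 16.3), and 219 in replicate 2, or 16 CPM (13.9 to 18.2). Tap2 (ENSMUSG00000024339, chr17:34203527-34216321, plus strand) had 9 counts in replicate 1, or 0.622 CPM (0.285 to 1.18), and 11 in replicate 2, or 0.801 CPM (0.40 to 1.43). Both subunits were detected in both libraries, Tap2 close to the limit. Per kilobase the mean level was 5.10 ± 0.425 CPM (SD, n = 2) for Tap1 and 0.207 ± 0.0367 CPM (SD, n = 2) for Tap2. Tap1 was 26.5-fold higher than Tap2 per kilobase in replicate 1 (95% exact binomial interval 13.7 to 58.9) and 23.2-fold in replicate 2 (12.7 to 47.2). With the merged exons of all transcripts as the length, an alternative chosen after seeing the data, the mean fold was 14.7 in place of 24.9. Tapbp was 1.44-fold above Tap1 per kilobase in replicate 1 (1.2 to 1.73) and 1.26-fold in replicate 2 (1.05 to 1.51).

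Psmb8 and Psmb9 encode catalytic subunits of the immunoproteasome, which replace Psmb5 and Psmb6 of the constitutive proteasome. Psmb8 (ENSMUSG00000024338, chr17:34197721-34201454, plus strand) had 0 counts in replicate 1, where the limit of 3 counts equals 0.207 CPM (upper bound of the Poisson interval 0.255), and 3 counts in replicate 2, or 0.219 CPM (0.0451 to 0.639). It was not detectable at this depth in either library. Psmb9 (ENSMUSG00000096727, chr17:34181987-34187764, minus strand) had 19 counts in replicate 1, or 1.31 CPM (0.791 to 2.05), and 21 in replicate 2, or 1.53 CPM (0.947 to 2.34). Its level per kilobase was 1.05 ± 0.113 CPM (SD, n = 2), above 58.7% of genes.

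The constitutive subunits Psmb5 and Psmb6 were among the most abundant transcripts. Psmb5 had 2210 and 2123 counts in replicates 1 and 2, a level of 171 ± 1.43 CPM per kilobase (SD, n = 2). Psmb6 had 3298 and 3492 counts and 302.3 ± 23.3 CPM per kilobase (SD, n = 2), above 99.4% of genes. Psmb5 and Psmb6 thus each exceeded their inducible counterpart by more than 100-fold. Psmb6 was 294-fold higher than Psmb9 per kilobase in replicate 1 (188 to 489) and 282-fold in replicate 2 (184 to 456). Psmb5 was at least 1334-fold higher than Psmb8 per kilobase in replicate 1, with Psmb8 set to the limit of 3 counts. This bound rests on the limit alone and leaves counting error out. In replicate 2 the 3 counts observed equal that limit, at which the fold was 1282, with a wide interval of 438 to 6219. Psmb5 shares 35.8% of its 75-base stretches and 7.07% of its 150-base stretches with another locus, so that its level is uncertain.

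Psmb8 and Psmb9 together made up 0.235% ± 0.0314 (SD, n = 2) of the summed level per kilobase of these subunits and Psmb5 and Psmb6. In counts they had 19 of 5527 in replicate 1, or 0.344% (95% Wilson interval 0.220% to 0.536%), and 24 of 5639 in replicate 2, or 0.426% (0.286% to 0.633%). The mean share depended on the length used, with 0.385% from counts without division by length and 0.140% with merged exon lengths. The third inducible subunit, Psmb10, was well above the others, at 120 and 127 counts and 6.69 ± 0.514 CPM per kilobase (SD, n = 2). It exceeded Psmb9 by 6.51-fold per kilobase in replicate 1 (3.99 to 11.2) and by 6.24-fold in replicate 2 (3.91 to 10.4). Psmb7, its constitutive counterpart, was not analysed here, and for this reason Psmb10 is not part of the share. Added to the inducible side, a choice made after seeing the data, it raised the mean share to 1.62%. The inducible subunits of the proteasome activator, Psme1 and Psme2, reached 37.2 ± 4.48 and 35.0 ± 3.25 CPM per kilobase (SD, n = 2), above Psmb10. Psme2 shares 51.7% of its 75-base stretches and 32.5% of its 150-base stretches with another locus and is uncertain. Of 11 noncatalytic core subunits, which both forms of the proteasome contain, 10 were measured. All 10 were above the limit in both libraries, beside 50.2% of all genes. None of the 10 was 2-fold apart, beside 9.11% of all genes. Psmb4, Psma1, Psmb3 and Psma2 had 276 ± 10.7, 264 ± 25.5, 253 ± 17.7 and 233 ± 20.1 CPM (SD, n = 2). Psmb3 shares 33.1% of its 75-base stretches and 3.24% of its 150-base stretches and is uncertain as well.

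Nlrc5 (ENSMUSG00000074151, chr8:94434356-94527272, plus strand) encodes the transactivator that binds class I promoters together with the RFX, NF-Y and CREB family factors. It had 39 counts in replicate 1, or 2.70 CPM (1.92 to 3.69), and 25 in replicate 2, or 1.82 CPM (1.18 to 2.69). The intervals of the libraries overlap. Its transcript is the longest of the 10, at 7578 bases, and per kilobase its level was 0.298 ± 0.0817 CPM (SD, n = 2), above 50.2% of genes. Nlrc5 and Tap2 did not differ beyond counting error per kilobase, with a ratio of 1.97 in replicate 1 (0.938 to 4.62) and 1.03 in replicate 2 (0.490 to 2.32). Psmb9 was above Nlrc5 in both libraries, 2.73-fold (1.49 to 4.84) and 4.71-fold (2.51 to 8.76) per kilobase.

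**Figure D1:**
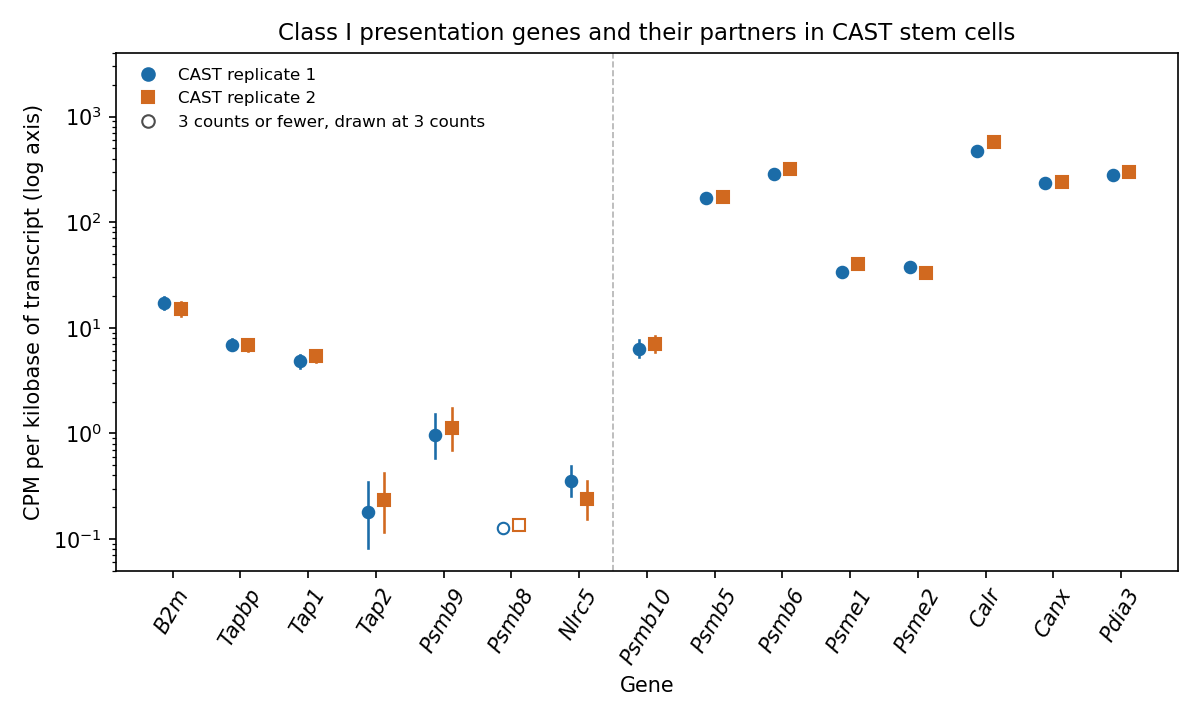
CPM per kilobase of transcript (log axis) for the 7 measured class I presentation genes (left of the dashed line) and 8 partner genes (right), in CAST replicate 1 (circles) and replicate 2 (squares), with 95% exact Poisson intervals as bars. Open symbols stand at 3 counts for Psmb8, which had 0 and 3 counts, while Tap2 lies 26.5-fold and 23.2-fold below Tap1 and Psmb9 lies 294-fold and 282-fold below Psmb6.

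Of the 10 genes, 8 are on chromosome 17, in and beside the major histocompatibility complex. Psmb9, Tap1, Psmb8 and Tap2 follow each other within 34335 bases. Tap1 and Psmb9 point away from each other and their 5′ ends overlap by 212 bases, which is 7.18% of the Tap1 transcript and 15.7% of the Psmb9 transcript. Within this stretch the levels were uneven. The gap from the end of Tap1 to the start of Psmb8 is 495 bases, and Tap1 had 205 and 219 counts where Psmb8 had 0 and 3. Tap1 was 4.94-fold above Psmb9 per kilobase in replicate 1 (3.08 to 8.37) and 4.77-fold in replicate 2 (3.05 to 7.87). The strand setting of the counting is not given in the sources used here, so reads from the overlap of Tap1 and Psmb9 cannot be told apart, and the level of Psmb9 is uncertain to that extent. Genes of the opposite strand also cover 23.5% of the Tapbp transcript (Gm19412), 11.4% of that of Psmb8 (Gm20496) and 15% of that of Tap2 (Gm15821, which had 0 counts in both libraries). Gm20496 covers a further 4.79% of the Tap2 transcript, and neither it nor Gm19412 was analysed here.

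**Figure D2:**
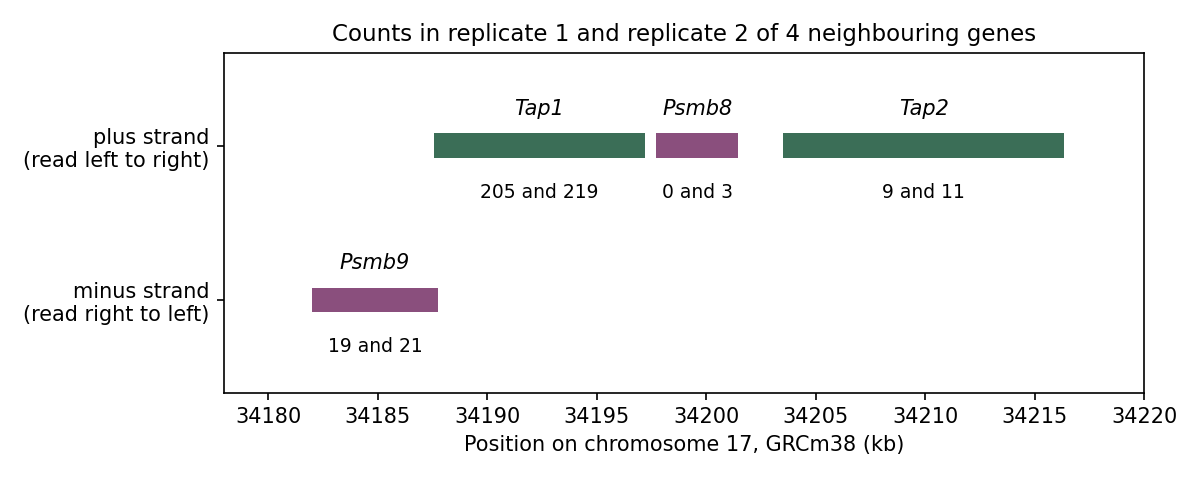
Positions of Psmb9, Tap1, Psmb8 and Tap2 on chromosome 17 of GRCm38 (kb), by strand, drawn to scale with each bar from gene start to gene end and counts in CAST replicate 1 and replicate 2 under each gene. Tap1, with 205 and 219 counts, lies between Psmb9 (19 and 21) and Psmb8 (0 and 3).

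The libraries were next compared for these genes, as the log2 ratio of replicate 1 to replicate 2 with TMM library sizes and a pseudocount of 0.5 CPM. With 1 library on each side there is no replicate check and no test. Of 13824 genes with 10 or more counts over both libraries, 9.11% were at least 2-fold apart, with 4.98% higher in replicate 1 and 4.13% higher in replicate 2. These were 1259 genes, and 540 with a pseudocount of 2 CPM. None of the 6 class I genes that passed this filter was 2-fold apart, and Psmb8 did not pass it. At that background, a count of 0 among 6 genes is not a result about the class I genes.

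The ratios ran from -0.25 for Tap2 to 0.41 for Nlrc5. B2m had a log2 ratio of 0.13 (95% exact binomial interval from the counts -0.15 to 0.44) and Tap1 one of -0.22 (-0.51 to 0.05). Tapbp had -0.03 (-0.28 to 0.21) and Psmb9 had -0.21 (-1.25 to 0.69). For Nlrc5 the interval ran from -0.25 to 1.29 and for Tap2 from -1.87 to 0.98. The intervals of Nlrc5, Tap2 and Psmb9 reach past 2-fold in 1 direction, and those of B2m, Tap1 and Tapbp do not. All 6 intervals include 0. The median ratio of the 6 genes was -0.12, against 0.00 for all genes tested, and the median size of the ratio was 0.21 against 0.31. The median of the class I genes was -0.03 with the expression filter of edgeR, which Tap2 does not pass, and -0.21 with a minimum of 1 count, which adds Psmb8. Replicate 1 was higher in 2 of the 6 and replicate 2 in 4, a split of 3 and 3 with library totals in place of TMM, since Tapbp then changed sign.

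**Figure D3:**
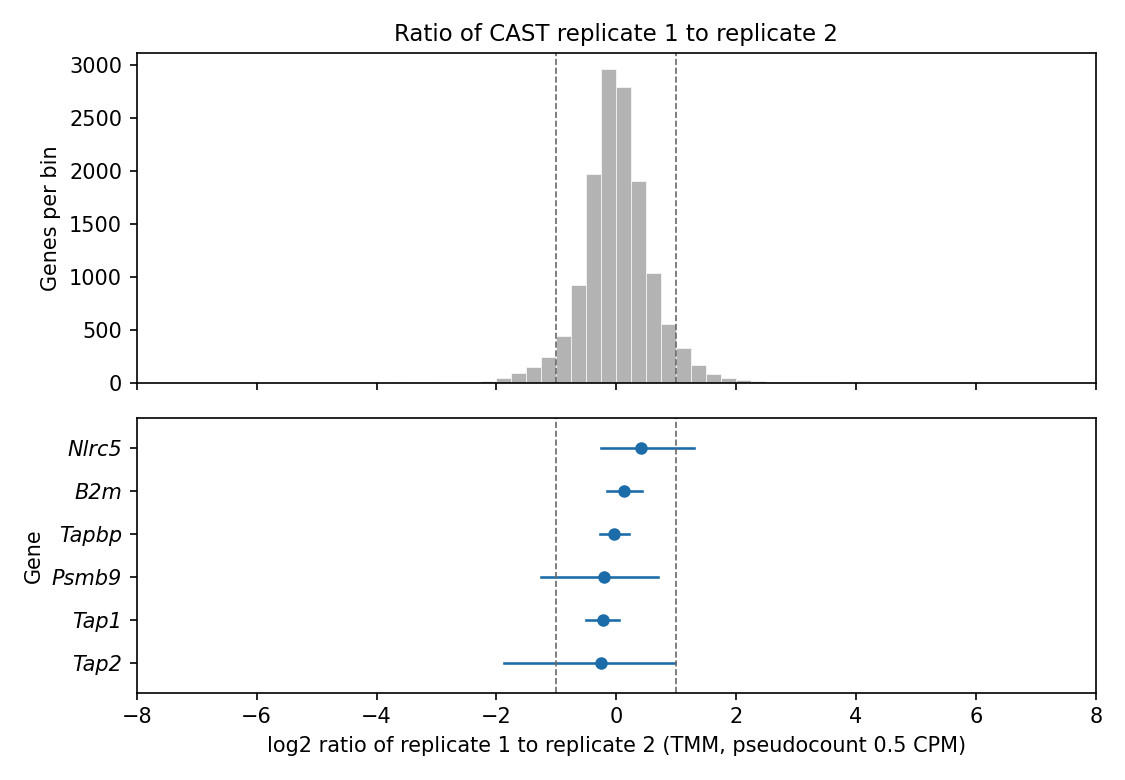
Top, number of genes per bin of the log2 ratio of CAST replicate 1 to replicate 2 for the 13824 genes with 10 or more counts over both libraries; bottom, the ratio of each class I gene in that set (points) with its 95% exact binomial interval from the counts without pseudocount (bars). Dashed lines mark 2-fold, and the 6 points lie between -0.25 and 0.41.

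Heavy chain genes share stretches of sequence with each other. By the methods of the study, reads that mapped to more than 1 locus were discarded, and the reads were aligned to the CAST/EiJ genome. The submitters' processing notes name GRCm38 instead, and which was used for the counts is not given in the sources used here. An effect of strain differences on the counts, including low ones such as those of Tap2 and Psmb8, was not tested. Sequence was compared here among transcripts of the GRCm38 annotation, so that the strain's own differences were not analysed here, and unique mapping may differ between strains in these variable genes. Of the 10 genes, 4 had 1 or more stretches of 75 bases in common with another locus. H2-T23 shared 183 of 1398 stretches (13.1%), H2-D1 144 of 2028 (7.10%), H2-K1 24 of 1545 (1.55%) and Tapbp 28 of 2824 (0.992%). B2m, Tap1, Tap2, Nlrc5, Psmb8 and Psmb9 shared none. With stretches of 150 bases, H2-D1 (1.79%) and H2-T23 (0.831%) were the only 2 of the 10 that shared any. The study's reads were paired-end and 150 bases long.

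Over all protein-coding genes of the annotation, the share listed in the count table, at any count including 0, was lower for genes with shared sequence. Of 16476 genes without a shared stretch, 94.5% were listed. Of 5443 with at least 1, the share was 51.0%. It was 72.7% for the 2877 genes with up to 10% of stretches shared, where H2-K1 and H2-D1 fall, and 26.7% for the 2566 with more, such as H2-T23. This did not hold for every gene, since the heavy chain genes H2-T3 and H2-Bl share no stretch and were not analysed here either. The same was true of the proteasome genes Psmb1 and Psmb7. Genes without reads can stay listed, and 9404 of those in the table had 0 counts in both libraries. The part of shared sequence in the listing of single genes was not tested.

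The longest coding run shared by each pair of H2-K1, H2-D1 and H2-T23 lies in exon 4, which encodes the conserved alpha-3 domain next to the membrane. The exon is 276 bases long and wholly coding in all 3 genes. Exon 4 of H2-K1 (chr17:33997285-33997560, minus strand) is identical to that of H2-D1 (chr17:35265784-35266059, plus strand) at 265 bases, or 96.0%. That of H2-T23 (chr17:36030822-36031097, minus strand) is identical to H2-D1 at 266 bases (96.4%) and to H2-K1 at 263 (95.3%). The exons are shown from GENCODE transcripts on GRCm38, 5′ to 3′ on the coding strand, because they hold the runs that the heavy chains have in common. Capitals mark bases within a stretch of at least 75 bases that stands unchanged in another of the 3 exons.
H2-K1: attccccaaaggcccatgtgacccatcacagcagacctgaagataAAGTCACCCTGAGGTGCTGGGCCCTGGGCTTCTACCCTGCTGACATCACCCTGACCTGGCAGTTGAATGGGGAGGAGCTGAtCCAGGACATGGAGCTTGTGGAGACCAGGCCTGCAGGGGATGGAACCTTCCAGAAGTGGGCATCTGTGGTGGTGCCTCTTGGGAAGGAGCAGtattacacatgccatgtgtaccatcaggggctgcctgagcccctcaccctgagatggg
H2-D1: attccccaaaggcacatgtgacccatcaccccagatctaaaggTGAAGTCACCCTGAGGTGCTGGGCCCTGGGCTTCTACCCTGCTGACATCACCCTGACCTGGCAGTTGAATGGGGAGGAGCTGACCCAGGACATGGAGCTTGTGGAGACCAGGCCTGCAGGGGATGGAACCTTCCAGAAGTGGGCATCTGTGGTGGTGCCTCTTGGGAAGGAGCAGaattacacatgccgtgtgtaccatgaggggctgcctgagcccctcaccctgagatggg
H2-T23: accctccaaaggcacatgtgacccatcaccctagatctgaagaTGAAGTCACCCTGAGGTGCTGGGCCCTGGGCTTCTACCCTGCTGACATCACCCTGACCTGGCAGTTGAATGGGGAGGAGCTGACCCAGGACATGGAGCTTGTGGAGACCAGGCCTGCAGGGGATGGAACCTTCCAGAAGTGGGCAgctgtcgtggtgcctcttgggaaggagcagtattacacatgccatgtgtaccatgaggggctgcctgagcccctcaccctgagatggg
The capitals cover 172 bases in H2-K1, 175 in H2-D1 and 145 in H2-T23. The longest of these runs was 145 bases, between H2-D1 and H2-T23, followed by 91 bases between H2-K1 and H2-D1 and 81 bases between H2-K1 and H2-T23.

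Of 15 other heavy chain genes of classical, nonclassical and related type, 4 were measured. H2-M3 alone was above the limit in both libraries, beside 50.2% of all genes. H2-M3, which presents formylated peptides, had 13 and 9 counts, or 0.777 ± 0.172 CPM (SD, n = 2). H2-T24 had 3 and 7 counts and H2-M2 had 4 and 3. Mr1, which presents vitamin B metabolites to innate-like T cells, had 11 and 2. Together these 4 genes held 1.84 ± 0.434 CPM (SD, n = 2). Without H2-K1, H2-D1 and H2-T23, the total heavy chain level could not be given.

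General chaperones of the endoplasmic reticulum that take part in class I folding or loading were at the opposite extreme. Calr, calreticulin, had 1149 ± 159 CPM (SD, n = 2), and Canx, calnexin, 1011 ± 21.1. Pdia3, the disulfide isomerase ERp57, had 799 ± 34.3 CPM and Hspa5, the chaperone BiP, 716 ± 6.68. These 4 serve the folding of many glycoproteins. Per kilobase, Calr was 68.6-fold above Tapbp in replicate 1 (61.1 to 77.3) and 85.1-fold in replicate 2 (75.4 to 96.3). The components dedicated to class I peptides were lower. Erap1, the aminopeptidase that trims peptides in the endoplasmic reticulum, had 48 and 21 counts, and the tapasin homologue Tapbpl had 17 and 13. Erap1 and Tapbpl were chosen after their values were seen. None of the 6 trimming and loading genes was 2-fold apart between the libraries, against 9.11% of all genes tested. Erap1 had a log2 ratio of 0.86, lowered by the pseudocount, with an interval from the counts alone of 0.29 to 1.87.

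Of 12 regulators of class I transcription, 11 were measured, and all 11 were above the limit in both libraries, beside 50.2% of all genes. None was 2-fold apart, against 9.11% of all genes tested, which at 11 genes is not a result about this list. The NF-Y subunits Nfyb and Nfya had 143 ± 4.86 and 117 ± 6.95 CPM (SD, n = 2). Rfxap, a subunit of the RFX complex, had 38.7 ± 12.2 CPM, with 435 counts in replicate 1 and 650 in replicate 2. Nfkb1 had 28.3 ± 2.99 CPM. Irf1, an interferon-inducible activator, had 295 and 281 counts, or 20.4 ± 0.0484 CPM, and was picked with its values in view.

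All 10 interferon receptor and signalling genes were above the limit in both libraries, beside 50.2% of all genes. The count of those 2-fold apart, 0 of 10, is likewise no result beside the 9.11% of all genes. Jak1, a kinase at the receptors of both interferon types, was the highest at 139 ± 9.97 CPM (SD, n = 2). The receptor chain Ifnar1 had 45.1 ± 5.92 CPM, and Stat2 and Tyk2, which act downstream of it, had 38.2 ± 9.58 and 28.2 ± 2.58 CPM. Of 19 interferon-stimulated genes, 16 were measured and 7 were above the limit in both libraries, beside 50.2% of all genes. Ifitm3 and Bst2, which restrict virus entry and release, held most of the list, at 66.9 ± 9.23 and 24.4 ± 6.62 CPM of a summed 101 ± 13.6 CPM. Mx1 had 33 and 43 counts. Rsad2, with 48 and 15 counts, was the only one past 2-fold of the 8 that passed the filter for ratios, beside 9.11% of all genes, and higher in replicate 1 at a log2 ratio of 1.22 (0.68 to 2.49), which was 0.75 with a pseudocount of 2 CPM.

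Class II genes, which present peptides from outside the cell in professional antigen-presenting cells, were described for comparison. Of 6 listed, 5 were measured and all 5 were above the limit in both libraries, beside 50.2% of all genes. H2-Eb1, the beta chain of the E molecule, had 581 and 496 counts, or 38.2 ± 2.86 CPM (SD, n = 2). Per kilobase it exceeded B2m by 1.40-fold in replicate 1 (1.19 to 1.64) and by 1.44-fold in replicate 2 (1.21 to 1.72). H2-DMa had 48 and 37 counts. H2-Ab1 had 22 and 47 and was 2.01-fold higher in replicate 2 (log2 ratio -2.03 to -0.47). It was the only one of the 5 past 2-fold, beside 9.11% of all genes, and was no longer past it with library totals, at a log2 ratio of -0.96, with a pseudocount of 2 CPM, at -0.65, or, by a small margin, with DESeq2 size factors. The invariant chain Cd74, which class II molecules need for assembly, was low, at 24 and 30 counts.

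The cell labels were checked against markers. Of 12 pluripotency markers, 10 were measured and all 10 were above the limit in both libraries, beside 50.2% of all genes. They summed to 5202 CPM in replicate 1 and 4213 in replicate 2. Utf1 was the most abundant at 818 ± 20.0 CPM (SD, n = 2), followed by Esrrb at 730 ± 246. Pou5f1 had 639 ± 130 CPM, which can include transcripts of its vector. Tfcp2l1 had 609 ± 183 CPM. Klf4, also given by a vector, was the only 1 of the 10 past 2-fold, beside 9.11% of all genes. It was higher in replicate 1 at a log2 ratio of 1.12. Pou5f1 and Sox2, also given by vectors, had log2 ratios of -0.48 and 0.40. The part of the vectors in these levels was not tested.

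Markers of leukocytes, which have high class I levels, were measured for 4 of 5 genes and summed to 17.6 CPM in replicate 1 and 31.7 in replicate 2. Ptprc, which marks all leukocytes, had 0 and 2 counts, at or near 0. Cd68, also found in other cells, was the most abundant, with 221 and 413 counts. Adgre1 had 15 and 2 counts and Cd3e 18 and 18. Of the 3 that passed the filter for ratios, 2 were past 2-fold, beside 9.11% of all genes, and neither held with every setting. Cd68 was past 2-fold and higher in replicate 2 (log2 ratio -1.01, and -0.95 with library totals), and Adgre1 was past it and higher in replicate 1 (1.22, and 0.49 with a pseudocount of 2 CPM).

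Of 16 fibroblast feeder markers, 15 were above the limit in both libraries, beside 50.2% of all genes, and S100a4 was at 0 in both. They summed to 6880 CPM in replicate 1 and 4293 in replicate 2, with Fn1 the most abundant at 2201 ± 282 CPM (SD, n = 2). Sparc, also abundant at 731 ± 35.2 CPM, had a log2 ratio of 0.04. Of 15 tested, 13 were higher in replicate 1, beside 50.4% of all genes, and 7 of them at least 2-fold, beside 4.98%. The median log2 ratio of the 15 was 0.92, against 0.00 for all genes tested. The 7 were the collagens Col1a1, Col1a2, Col3a1 and Col5a1 with Fbn1, Lox and Thy1, from 1.09 for Col1a1 to 2.22 for Fbn1. Other markers of the list were low and not 2-fold apart. Dcn had 3.23 ± 0.0319 CPM (SD, n = 2) and a log2 ratio of -0.03. Pdgfrb had 6.39 ± 0.335 CPM and -0.15, and Lum had 1.69 ± 0.540 CPM and 0.46. Dcn, Pdgfrb and Lum were chosen after their values were seen. Fibroblasts and stem cells both make some of these transcripts, and the part of feeder cells in the class I levels was not tested.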

How the data were processed

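The members and all gene lists were chosen with earlier results of these data known. The authors deposited whole-number counts of reads per gene without normalization. By the study's methods, paired-end reads of the CAST libraries were aligned with STAR (version not given in the sources used here) to the CAST/EiJ genome, reads mapping to more than 1 locus were discarded, and reads were counted per gene during alignment. The submitters' processing notes name TopHat2 2.1.1, SAMtools, HTSeq and GRCm38 instead, without roles. Which of these made the counts is not given in the sources used here, and the discarding of multi-mapping reads rests on the first. The labels and the methods also name different RNA kits.

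A further 7 columns of the table match no listed sample by name and were left unused. Not analysed here were 4 libraries of homozygous 129 cells and 4 of the 129Cas hybrid. With 1 group of 2 libraries, no test between groups was possible and no p-value is given.

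CPM used library totals. Ratios were taken over genes with 10 or more counts in both libraries together, on TMM library sizes (edgeR 4.0.16, R 4.3.3), after adding 0.5 CPM. Intervals are exact Poisson for counts, exact binomial for ratios of counts and Wilson for shares, at 95%, and cover counting error only. The depth of 14460393 and 13728098 counts makes 3 counts equal to 0.207 and 0.219 CPM. Of 26808 identifiers, 26807 had a symbol, a position and a length in GENCODE M21 of GRCm38. Lengths are those of the longest protein-coding transcript. Shared stretches were counted between transcripts of different loci on either strand, where overlapping genes form 1 locus. Ratios and shared stretches were tested on simulated data.

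The immunoproteasome share was to include Psmb10 and Psmb7, and Psmb7 was not analysed here. From the leukocyte markers, 1 gene is not reported here. All 10 members are named, and of each other list the 4 genes with the highest mean CPM and any gene at least 2-fold apart with a mean of at least 5 CPM. Alternatives were library totals, TMM or size factors of DESeq2 1.42.0, pseudocounts of 0.1 and 2 CPM, other count filters, a limit of 10 counts, other lengths, each library left out and stretches of 150 bases. All else was computed in Python 3.11.15 with scipy 1.17.1, pandas 2.3.3 and numpy 2.4.6, and drawn with matplotlib 3.10.9.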

Additional observations from a re-analysis of the deposited data

How the results depend on the processing

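No paired analysis was possible because all counts came from 1 group and none of the results came from a test. Of the 7 measured class I genes, 6 were above the limit in both libraries, and 5 with a limit of 10 counts, since Tap2 had 9 counts in replicate 1. With 1 library left out the number was 6 either way, the summed level ranged from 52.9 to 53.7 CPM, the immunoproteasome share from 0.213% to 0.257% and the fold of Tap1 over Tap2 from 23.2 to 26.5. The levels of the 7 genes moved by less than 1 SD in all 14 values from the other scalings. The ratios moved by less than their counting intervals in all 24 values from other scalings and pseudocounts, while Tapbp changed sign with library totals. Tap2 did not pass the filter of edgeR and has no ratio there. The median log2 ratio of -0.12 ranged from -0.21 to -0.03 over its 6 alternatives, both ends set by the count filter.

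The immunoproteasome share of 0.235% was 0.385% without division by length, 0.140% with merged exon lengths and 1.62% with Psmb10 added. The fold of Tap1 over Tap2 was 14.7 with merged exon lengths, in place of 24.9. The addition of Psmb10 and all alternatives for Tap1 and Tap2 were chosen after seeing the data. Genes 2-fold apart or more numbered 1259, which fell to 540 with a pseudocount of 2 CPM, which acts on low genes. It lay between 849 and 1811 under the other 5 alternatives, and no class I gene was among them under any. Of the 10 genes, 4 shared a stretch of 75 bases and 2 one of 150. Depth limits Tap2, Psmb8, Psmb9 and Nlrc5 most, with 39 counts or fewer in each library.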
